A study of Rattus norvegicus with 6 samples.

Results

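Of the 4781 probes for microRNAs (miRNAs) of other species on a custom vertebrate array, 467 had targets that are 45% or more G. The rule that chose these G-rich probes used no measured value: standard probes with no rat miRNA assigned, a G share at or above the threshold, and none of the names miR-34, miR-449, miR-155, miR-320, miR-484, miR-877, miR-1224, miR-720, miR-1274, miR-1260, miR-1280 and miR-1308, which took out 6 further probes. The rule was set with earlier results of these data known. The whole array had 5560 probes, of which 679 were assigned to rat and 100 were custom probes for candidate rat sequences of the study. Among the 467 targets, 197 were human (hsa), 63 bovine (bta), 60 mouse (mmu) and 56 chicken (gga), and the rest came from other vertebrates, platypus (oan), lamprey (pma) and zebra finch (tgu) among them. The targets were 17 to 26 bases long and held 45 to 85% G, with a median of 50%.

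Kidney RNA was taken from Fisher 344 rats, all male, all Big Blue transgenic and 6 weeks old when dosing began. Big Blue animals carry a lambda phage reporter transgene for mutation tests, in control and treated rats alike. Replicates 13, 14 and 15 were untreated controls, and replicates 19, 20 and 21 were given aristolochic acid (AA), a nephrotoxic and carcinogenic plant acid, in the form of the sodium salt. The dose was 10.0 mg/kg, given by gavage 5 times weekly over 12 weeks, and the rats were killed 1 day after the last dose. Each animal had 1 array, read in Cy3 only, and the labels give no slide or scan day.

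A miRNA is a short RNA cut from a hairpin precursor, loaded into an Argonaute protein and guided to messenger RNAs by its seed. Many database entries with a high G share come from deep sequencing of a single species, and some such entries were later traced to fragments of ribosomal RNA (rRNA), to introns of protein genes or to repeats. An array probe is the complement of its target, so the probe of a G-rich target is rich in C. It reports whatever labelled RNA stays bound to it under the wash, whether or not that RNA is the named miRNA. Stretches of G in an RNA can stack into 4-stranded structures (quadruplexes), and duplexes rich in G and C are the most stable ones.

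The targets below carry most of the results. The first set holds members among the 12 brightest on all 6 arrays that share the letters GGAGGC, given in capitals.

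mmu-miR-709: GGAGGCagaggcaggagga
hsa-miR-4743: uggccggaugggacaGGAGGCau
hsa-miR-4459: ccaGGAGGCggaggagguggag
bta-miR-2360: cgggcaGGAGGCuGGAGGCguu
hsa-miR-4656: ugggcugagggcaGGAGGCcugu

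The second set shows targets made mostly of G and C, 4 of them bright on all arrays (the first 3 and hsa-miR-3656) and the others among those with the largest differences between AA and control. Capitals mark runs of 3 or more G.

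bta-miR-2881: GGGGcGGGGGGGcGGGug
bta-miR-1777b: GGGGGcgguGGGGGGcGGGG
tgu-miR-2981: ccGGGccGGGcGGGcGGG
hsa-miR-3656: ggcGGGugcGGGGGugg
hsa-miR-4463: gagacuGGGGuGGGGcc
hsa-miR-4466: GGGugcGGGccggcGGGG
hsa-miR-4488: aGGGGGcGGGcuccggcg
hsa-miR-149*: aGGGaGGGacGGGGGcugugc
tgu-miR-2961: aggaagguaGGGcGGGcgucgcu
gga-miR-1763: gaGGGcGGGagcggagcgcGGGa

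The third set is rich in purines (G and A), and its members were highest on AA replicate 20 after normalization. Capitals mark GGAGG.

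hsa-miR-483-5p: aagacgGGAGGaaagaagggag
hsa-miR-4499: aagacugagaGGAGGga
hsa-miR-765: uGGAGGagaaggaaggugaug

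The fourth set holds stretches of alternating U and G, in capitals where 6 or more bases alternate.

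mmu-miR-466i-5p: UGUGUGUGUGUGUGUGUGUG
hsa-miR-574-5p: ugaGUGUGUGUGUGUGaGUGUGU
bta-miR-2288: agguaguagGUGUGUGguuu

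The last set gives pairs of primate targets that differ at 1 base, which is in capitals.

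ppy-miR-1207-5p: uggcagggaggcAgggagggg
hsa-miR-1207-5p: uggcagggaggcUgggagggg
mml-miR-638: agggaucgcgggcgggCggcggccu
hsa-miR-638: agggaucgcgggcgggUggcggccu
hsa-miR-663: aggcggggcgcCgcgggaccgc
mml-miR-663: aggcggggcgcUgcgggaccgc

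G-rich probes gave signal far more often than the other probes of foreign miRNAs. The study kept a probe when its normalized intensity reached 32, and by the deposited values this held for 194 of the 467 G-rich probes (41.5%) on 1 array or more, and for 124 (26.6%) on every array. Of the 4308 foreign probes under 45% G, 715 (16.6%) reached 32 on 1 array or more, and 319 (7.40%) did so throughout. Rat probes lay between them, with 180 of 679 (26.5%) on 1 array or more, and 14.9% throughout. By another reading of each scan, which passed more probes on every array and in which a probe counts as well above background when it passes the median of the empty spots by 3 robust SDs, 68.7% of the G-rich probes passed on control replicate 13, 50.5% on control 14 and 44.5% on control 15. On the AA arrays 57.2% passed on replicate 19, 34.5% on replicate 20 and 40.3% on replicate 21. The same count for the foreign probes under 45% G lay between 12.5% (AA 20) and 25% (AA 19). The share among G-rich probes was higher on 6 of 6 arrays, by 30.7 ± 10.0 percentage points (SD, n = 6 arrays). An exact sign-flip permutation test over the arrays gave p = 0.031, two-sided, the smallest that 6 arrays allow. The same probes were read on every array, so the test covers the arrays and not the choice of probes. That choice was made with earlier results of these data known, so the p-value is no independent support for the gap. The gap was widest on control 13 (49.4 points) and narrowest on AA 20 (21.9 points), so both groups showed it.

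Detection was more frequent at a higher G share, but only above the threshold that defines the set. Under 15% G, 20.0% of 596 foreign probes reached 32 on at least 1 array. The share was 15.7% of 1446 probes at 15 to 25% G, 15.2% of 1458 at 25 to 35% and 15.6% of 749 at 35 to 45%. It was then 27.3% of 344 probes at 45 to 55% G, 74.4% of 82 at 55 to 65% and 95.1% of 41 at 65% or more. On all 6 arrays the shares of the last 3 bins were 15.4%, 42.7% and 87.8%. The bins therefore lay flat across most of the range and climbed steeply within the G-rich set. Probes just inside the threshold did not stand out, since 18 of 106 at 45 to under 47% G were detected, against 10 of 58 at 43 to under 45%. The climb was present on every array taken alone: at 65% G or more, between 90.2% (AA 20 and AA 21) and 95.1% (the 3 controls) of probes reached 32, against 18% (AA 21) to 25.3% (control 13) at 45 to 55% G.

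High shares of the other bases gave other patterns. Foreign targets with 45 to 55% C were detected in 33.5% of 161 cases, and those with 55 to 65% C in 9 of 36 cases, while 2 of 3 above that were detected, both on all 6 arrays. For A, 34.6% of 107 targets at 45 to 55% and 7.69% of 13 at 55 to 65% were detected, as was 1 of 2 above that. For U, 15.4% of 260 targets at 45 to 55% reached 32, and none of 20 at 55 to 65% or of 28 above that did. C-rich targets were also seldom steady, with 9 of the 161 at 32 on all 6 arrays. A-rich ones were steadier, with 25 of the 107 (23.4%) on all 6, beside 15.4% of foreign targets at 45 to 55% G. In that bin, detection on 1 array or more was thus higher for A and C than for G (27.3%). Among rat probes, 6 of 29 at 45 to 55% G and 3 of 5 at 55 to 65% were detected, and no rat target held 65% or more.

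Signal also went with the G share. Across all 4781 foreign probes, mean normalized log2 signal and percent G had a Spearman correlation of 0.28 and a Pearson correlation of 0.15. The relation was not particular to G, since percent G+C had a Spearman correlation of 0.29. Over the 913 foreign probes at 32 on at least 1 array, Spearman's rho was 0.11 for G and -0.10 for G+C. It was higher there for A (0.22) and for G+A (0.29). By array, over all 4781 probes, Spearman's rho with percent G was 0.52 on control 13 and between 0.093 (AA 20) and 0.20 (control 14) on the other 5. Within all 467 G-rich probes rho was 0.49 (Pearson 0.54), with a range of 0.40 (AA 20) to 0.51 (control 13) by array. Among the 194 G-rich probes at 32 on at least 1 array, rho between percent G and mean signal was 0.30 (Pearson 0.37), with a range of 0.21 (AA 20) to 0.35 (control 13) by array. In these 194, signal was lower where U was more frequent (rho -0.36) and had no relation to percent C (rho -0.0027). These are descriptions across probes that share the arrays and often parts of their sequence, and a probe's brightness also depends on its own letters, so a brighter probe does not show a more abundant RNA.

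Detection also differed by features that the selection did not use. Targets with 4 or more separate GG runs, the letters a quadruplex of stacked pairs would need, were detected in 64.3% of 154 cases, against 30.4% of the 313 without them. Such targets also hold more G, and at 45 to 55% G the shares were 41.6% of 77 targets with 4 or more GG runs and 23.2% of 267 with fewer. A single run of 4 or more G did not go with detection in that bin, where 24.8% of 133 targets with such a run and 28.9% of 211 without it reached 32. Fewer U bases did, since 39.3% of 145 targets under 15% U and 18.6% of 199 at 15% U or more were detected in the same bin. At 55 to 65% G the shares were close for U (75.0% of 44 and 73.7% of 38), and 80.0% of 40 targets with 4 or more GG runs and 69.0% of 42 with fewer were detected. At 65% G or more, 93.3% of 30 targets under 15% U and all 11 others were detected, as were 94.6% of 37 with 4 or more GG runs and all 4 with fewer. Short targets were detected most, with 74.5% of 55 at 17 to 18 bases and 22.5% of 40 at 24 to 26 bases. By species, 38.1% of 197 human targets, 54.0% of 63 bovine, 50.0% of 60 mouse, 42.9% of 56 chicken and 33.3% of 24 platypus targets reached 32, while 3 of 15 lamprey targets did.

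Particular words marked the brightest probes. Of 95 words of 6 letters held by at least 15 G-rich targets, GGGCGG and GGAGGC had the largest difference in median normalized log2 signal between targets with and without the word, 3.47 and 3.38. These words were picked after the values were seen. GGAGGC was present in 23 G-rich targets, of which 15 (65.2%) reached 32, and GGGCGG in 38, of which 30 (78.9%) did. Both hsa-miR-1207-5p and ppy-miR-1207-5p, which differ at 1 base, hold GGAGGC. The first reached 32 on no array and the second on all 6. Among foreign probes under 45% G, 34 held GGAGGC and 7 of them (20.6%) reached 32, near the 16.6% of those without it. On both strands, GGAGGC occurred in 30.5% and GGGCGG in 33.1% of 33469 rat promoter windows of 300 bases in RefSeq (assembly GRCr8), so neither word is rare in these windows. Rat genome sequence outside them was not searched.

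The brightest G-rich probe was mmu-miR-709, a mouse miRNA name given to a short purine-rich sequence. Its normalized log2 signal was 15.45 on control 13, 15.67 on control 14, 15.50 on control 15, 15.59 on AA 19, 15.23 on AA 20 and 15.67 on AA 21. All values by array follow this order. The groups overlapped, with a control mean of 15.54 ± 0.12 and an AA mean of 15.50 ± 0.24 (SD, n = 3 each). ppy-miR-1207-5p, named in orangutan, read 14.75, 14.61 and 14.24 in control and 14.63, 14.31 and 14.45 in AA. Its groups overlapped as well, at 14.53 ± 0.26 and 14.46 ± 0.16. hsa-miR-4743 read 12.44, 14.99 and 14.46 in control and 14.84, 14.64 and 14.72 in AA. The low value on control 13 came from 1 of its 2 spots there, which scanned at 1789 while the other scanned at 48368.

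hsa-miR-4459 ran from 13.41 to 14.57 in control and from 13.57 to 14.06 in AA, and bta-miR-2360 from 13.17 to 14.33 and from 13.68 to 14.39. Both were lowest on control 15. hsa-miR-4656 ran from 13.45 to 13.78 in control and from 13.37 to 14.21 in AA, again with overlap. bta-miR-2288, at the lower edge of the G range with 45%, ran from 13.27 to 13.71 and from 13.52 to 14.06. hsa-miR-3610, which also holds GGAGGC, was the least steady bright probe, at 14.26, 14.36 and 9.84 on the controls and 13.05, 13.24 and 11.03 on the AA arrays.

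The other bright probes were nearly pure G and C. bta-miR-2881 read 14.43, 13.59 and 14.14 in control and 13.94, 13.20 and 13.71 in AA. tgu-miR-2981 read 14.50, 13.85 and 14.23 in control and 13.92, 12.89 and 13.49 in AA. bta-miR-1777b, at 85% G the most G-rich target of all, read 13.90, 13.40 and 13.86 in control and 13.55, 12.93 and 13.04 in AA. On each of these 3 probes AA 20 was the lowest array and the groups overlapped. bta-miR-1777a shares 19 bases with bta-miR-1777b, and ran from 13.39 to 13.90 in control and from 12.97 to 13.55 in AA. RNAs bound by overlapping targets cannot be told apart.

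Of the G-rich targets, 17 pairs differ at 1 base. Both probes reached 32 on at least 1 array in 6 pairs, neither in 9 and only 1 of them in 2. The pairs named here were picked after their values were seen. The substitutions are written with the human base first, its position from the 5′ end, then the base of the other primate. hsa-miR-1207-5p and ppy-miR-1207-5p differ by U13A. The human target was at 32 on 0 of 6 arrays, with deposited values of 24.8, 21.5 and 12.1 in control and 20.5, 0.013 and 19.9 in AA, while the orangutan target was at 18816 or more on every array. hsa-miR-638 and mml-miR-638 differ by U17C, and both reached 32 on all 6 arrays. The macaque target was far brighter on each array, at 14.05 against 10.94 on control 13 and 12.73 against 9.25 on AA 20 (normalized log2 signal). hsa-miR-663 and mml-miR-663 differ by C12U, and they reached 32 on 6 arrays and on 3 (control 13 and 15 and AA 19). Other pairs read alike, such as hsa-miR-1268 and ppy-miR-1268 (G17C), at 8.77 and 8.89 on control 13, both at 32 on all 6 arrays. The cause of unlike readings within a pair was not tested.

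No G-rich probe passed the adjusted threshold between AA and control. The fit was limma on quantile-normalized log2 signal over the 1132 probes of the array at 32 on at least 1 array, with Benjamini-Hochberg adjustment over all of them. It called 0 of the 194 tested G-rich probes at an adjusted p under 0.05, against 0.177% of all tested probes. At an unadjusted p under 0.05, 21 G-rich probes (10.8%) were lower in AA and 0 were higher, beside 3.80% and 1.15% of all tested probes. In 24 G-rich probes (12.4%) every AA array was below every control array, beside 5.57% of all tested probes, and in 1 (0.515%) every AA array was above, beside 4.42%. The median log2 change, AA minus control, was -0.14 over the 194 G-rich probes, with 116 lower and 78 higher, and -0.053 over all 1132, with 613 lower. These counts describe the 6 arrays and were not tested as counts. The count of 21 was 8 without AA 21 (4.15%, beside 2.06% of all tested probes), 9 without control 13 (4.84%, beside 1.61%) and 45 without AA 19 (23.4%, beside 8.19%). It was 0 with median scaling and with no normalization, and 9 of 194 (4.64%, beside 3.45%) with subtraction of the empty-spot median. With array quality weights, which gave AA 20 a weight of 0.124 and control 14 a weight of 5.17, 12 G-rich probes (6.19%) passed the adjusted threshold, all lower in AA, beside 2.39% of all tested probes that did so. hsa-miR-4463, hsa-miR-149*, hsa-miR-4466 and tgu-miR-2961 were among the 12. When AA 20 was left out, 15 of 192 G-rich probes (7.81%) were lower at an unadjusted p under 0.05, beside 2.55% of 1100 probes tested. Their median change was then -0.28, with 150 of 192 lower, against -0.0063 over all.

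The largest differences with groups apart were in 6 targets with 69.6 to 94.4% G+C, all lower in AA. hsa-miR-4463 had the lowest p among G-rich probes, with normalized log2 signal of 11.30, 11.13 and 10.95 in control and 10.00, 9.01 and 9.37 in AA. Its AA arrays all lay below its controls, by 1.67 ± 0.32 (SE), with limma adjusted p = 0.44. hsa-miR-149*, the passenger strand of miR-149, read 10.75, 10.36 and 10.82 in control and 9.85, 6.92 and 8.64 in AA. The log2 change of -2.17 ± 0.68 (limma adjusted p = 0.87) was the largest of the set and rested most on AA 20, since without that array it was -1.44. The mouse probe mmu-miR-149* shares 16 bases with it, and its target lies whole in the rat Mir149 hairpin. That probe read 13.40, 12.87 and 13.33 in control and 13.13, 12.27 and 12.21 in AA, so its groups overlapped.

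tgu-miR-2961 read 9.31, 8.72 and 9.51 in control and 8.10, 6.35 and 7.45 in AA, a log2 change of -1.88 ± 0.48. hsa-miR-4466 read 10.53, 9.97 and 9.71 in control and 9.40, 7.87 and 8.34 in AA, a log2 change of -1.53 ± 0.45. Both had limma adjusted p = 0.83. hsa-miR-4488 changed by -1.49 ± 0.49 and gga-miR-1763 by -1.48 ± 0.49, both with limma adjusted p = 0.87, from 10.58 to 11.37 and from 8.29 to 8.90 in control to between 8.48 and 10.33 and between 6.10 and 7.99 in AA. In all 6 probes AA 20 was the lowest array and AA 19 the AA array nearest to the controls. The only G-rich probe with every AA array above the controls was hsa-miR-4728-5p, from an intron of the ERBB2 gene in human. It ran from 6.38 to 6.53 in control and from 6.59 to 6.80 in AA (0.22 ± 0.24, limma adjusted p = 0.88), close to background, and reached 32 on 1 array.

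The difference between AA and control went with the base composition of the target. Over the 194 tested G-rich probes, log2 change and percent G+C had a Spearman correlation of -0.54, and log2 change and percent A 0.48. Without AA 20 these were -0.32 and 0.24 over 192 probes. Taken array by array against the control mean, rho with percent G+C was -0.56 on AA 20, -0.42 on AA 21 and -0.12 on AA 19. Controls set against the other 2 controls also had such slopes, at 0.16 on control 13, -0.43 on control 14 and 0.27 on control 15. The slope of control 14 was close to that of AA 21, although it was taken against 2 controls and not all of them. The AA slopes were all negative, though that of AA 19 was smaller in size than each control slope. Control differences taken in this way cancel out for each probe, so their slopes could not be expected to share a sign. The AA arrays were all set against the same baseline. The signs of the AA and control slopes therefore cannot be compared. The source of these slopes was not tested.

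G+C-rich targets were mostly lower in AA. Of 46 targets with 85% or more G+C, 38 were tested, 36 were lower in AA and 2 higher, with a median log2 change of -0.75. In 9 of them every AA array was below every control, beside 5.57% of all tested probes. Against the control mean, their median was -0.17 on AA 19, -1.23 on AA 20 and -0.78 on AA 21, and between -0.26 and 0.18 on the controls. Without AA 20 the median change was -0.45, and 35 of 38 were lower. The 30 tested targets with GGGCGG, many of them the same, had a median change of -0.76, with 12 lower at an unadjusted p under 0.05, beside 3.80% of all tested probes. None of these groups was tested as a group. None of their members passed the adjusted threshold in the unweighted fit, while with array quality weights some did, hsa-miR-4466 of the first group and tgu-miR-2961 of the second among them.

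Most purine-rich targets stood out on a single array. Of 16 targets with 85% or more G+A, 14 were tested, and 10 of them had their highest signal on AA 20. Another 2 had their lowest signal there, the bright mmu-miR-709 among them. Their median on AA 20 was 1.42 above the control mean, while on AA 19 it was -0.11 and on AA 21 -0.32. hsa-miR-483-5p, from an intron of the insulin-like growth factor 2 gene, read 9.40, 9.76 and 9.42 in control and 9.14, 11.55 and 9.27 in AA. hsa-miR-765 read 8.35, 8.32 and 8.65 in control and 8.43, 10.60 and 8.47 in AA. hsa-miR-4499 read 9.12, 9.32 and 9.17 in control and 8.68, 10.96 and 8.82 in AA. In each of these 3, AA 20 was high by over 1 log2 unit and the other AA arrays were within or below the range of the controls. With AA 20 the group's median change was 0.22, and without it -0.34, so its direction rested on that array.

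AA 20 was the dimmest array as well. Its mean scanner signal over all probes, after subtraction of the empty-spot median, was 149, against 263 to 483.9 on the other 5. Its spots for 5S rRNA controls averaged 366, against 3109 to 6846 elsewhere. Before normalization, the tested G-rich probes lay 0.93 log2 units below the control mean on AA 20, the purine-rich ones 0.67 below and the G+C-rich ones 2.51 below. By their medians, the G+C-rich probes thus lay lower than the rest before and after normalization. The median of the purine-rich ones lay above the controls on AA 20 only after normalization (also by 1.79 in the deposited values). The part of normalization and of the dim scan in these values was not tested.

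The alternating U and G targets did not separate the groups either. mmu-miR-466i-5p, a pure repeat of both letters, read 11.89, 11.64 and 11.54 in control and 11.30, 12.85 and 12.13 in AA. hsa-miR-574-5p read 12.04, 11.89 and 11.75 in control and 10.79, 12.46 and 12.60 in AA. In both, AA 19 was the lowest array of all 6 and AA 20 and AA 21 were the highest. The 8 tested targets with UGUGUG had a median log2 change of 0.23, and -0.12 without AA 20.

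Names linked to rRNA were looked at through a list of miR-663, miR-3648, miR-3687, miR-1826 and miR-3656, human entries whose sequences match transcribed ribosomal DNA. The list held 5 G-rich probes, of which 3 were tested and all 3 were lower in AA without passing the adjusted threshold. hsa-miR-3656 read 12.57, 12.16 and 12.44 in control and 11.73, 10.69 and 11.28 in AA, with all AA arrays below the controls. Its log2 change was -1.16 ± 0.33, with limma adjusted p = 0.83. hsa-miR-663 read 8.70, 7.95 and 9.37 in control and 8.65, 7.42 and 8.14 in AA (-0.60 ± 0.46, limma adjusted p = 0.88), and mml-miR-663 changed by -0.31 ± 0.34. hsa-miR-3648 and hsa-miR-663b reached 32 on no array. On the deposited scale hsa-miR-3648 lay between 0.50 and 6.34, so a name on the list was not enough for signal.

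Mirtrons, whose hairpins are whole short introns released by splicing, gave 5 G-rich probes on a list of miR-1225, miR-1226, miR-1227, miR-1228, miR-1229, miR-1233, miR-1234, miR-1236, miR-1237 and miR-1238. Of these, 2 were tested. mml-miR-1227 read 7.78, 7.91 and 7.41 in control and 7.53, 8.36 and 8.20 in AA (0.33 ± 0.32, limma adjusted p = 0.88). hsa-miR-1228* read 7.96, 7.74 and 7.42 in control and 7.57, 6.72 and 6.95 in AA (-0.63 ± 0.32, limma adjusted p = 0.88). hsa-miR-1225-5p, mml-miR-1225-5p and hsa-miR-1226* did not reach 32 on any array.

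The origin of the signal was searched in the rat sequences at hand. Of the 467 targets, 15 lay whole inside 1 of 419 rat miRNA hairpins in RefSeq. Only 2 of the 15 (13.3%) reached 32 on any array, against 192 of the 452 others (42.5%). The 2 were mmu-miR-149*, with 4403 to 9321 on the deposited scale, and hsa-miR-671-5p, with 45.5 to 245. The 13 others, hsa-miR-139-3p, mmu-miR-204* and mmu-miR-211* among them, were dim. Targets that share 12 or more bases in a row with a rat-assigned probe on the array were seldom detected too, 4 of 24. Neither count was matched for G share, and detection was 27.3% at 45 to 55% G but 95.1% at 65% or more. Whether a rat match in itself goes with detection was therefore not tested. The table of hairpins is not complete, so the 452 may include rat miRNAs.

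No long match to 5S rRNA was found. The longest stretch any G-rich target shared with the 17 control oligos for 5S rRNA was 10 bases, in 1 target that reached 32 on no array, and the median was 5 bases. Sequences of 18S, 28S and 45S rRNA were not used here, so a match to them was not tested. Repeated sequence was looked for in promoters. Of the 467 targets, 8 occurred whole, on either strand, in rat promoter windows. Of these 8, 7 (87.5%) reached 32 on at least 1 array and 5 on all 6, against 41.5% of all G-rich targets. These 8 were not matched to the others for G share either. mmu-miR-466i-5p was in 67 windows (0.200% of 33469) and reached 32 on all 6 arrays. mmu-miR-3473b was in 72 windows (0.215%), yet it reached 32 only on AA 19, at 75.5. The other 6 were in 1 to 3 windows each.

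Custom probes gave 2 long matches. Their targets are candidate rat sequences that the study found by sequencing kidney RNA. Capitals mark the shared bases.

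mmu-miR-709: ggaggCAGAGGCAGGAGGA
Candidate_608: gauacaCAGAGGCAGGAGGAgaa
mmu-miR-3473b: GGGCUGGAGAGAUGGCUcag
Candidate_254: ucuaGGGCUGGAGAGAUGGCUa

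mmu-miR-709 shared 14 bases with Candidate_608. On the deposited scale mmu-miR-709 read 46217, 40237 and 50110 in control and 55212, 28500 and 57146 in AA. Candidate_608 read 42968, 33213 and 39003 in control and 47376, 25834 and 48927 in AA. Both were bright on every array and dimmest on AA 20, and which RNA each bound cannot be told apart where the letters are shared. mmu-miR-3473b shared 17 bases with Candidate_254, which read 164, 173 and 180 in control and 312, 315 and 391 in AA. mmu-miR-3473b itself read 22.5, 26.3 and 11.4 in control and 75.5, 14.2 and 26.4 in AA. The longer overlap was thus met by unlike readings, with AA above control in Candidate_254 and overlap in mmu-miR-3473b.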

How the data were processed

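The array assay started from total kidney RNA of 6 rats, 3 per group. The RNA was tailed, tagged and stained with Cy3. The authors digitized laser scans with Array-Pro. The deposited scanner files give raw median pixel intensity per spot, with 2 spots per standard probe. A further deposited table holds intensity that the authors background-subtracted and normalized with a LOWESS filter, on a linear scale; the LOWESS reference is not stated. Detection at 32 was read from it. The number of arrays limits the precision.

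Here, scanner intensity was corrected by normexp (offset 50) with every spot in the fit, only miRNA and candidate probes were kept, and log2 signal was quantile-normalized and averaged over spots. The floor is about 5.64 log2, so changes of dim probes are understated. Probes at 32 on at least 1 array were compared by lmFit and eBayes in limma 3.58.1 (R 4.3.3). On simulated data with 200 of 1132 probes changed by 2 log2 units, 81% were recovered. The noise was drawn for each probe on its own, without shifts shared over an array. The share recovered therefore does not hold for smaller changes or for arrays with such shifts. Sequence features were counted in Python. P-values of the comparison between AA and control measure the spread between animals and between arrays together, since each animal had 1 array. The sign-flip p-value covers the arrays of both groups.

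Named probes were the 12 brightest above background on all arrays, the 6 largest rises and falls with groups apart, any probe past the threshold, tested members of the fixed name lists and the 2 with most G; others were chosen after their values were seen. The members and lists were chosen with earlier results of these data known. Alternatives covered background, normalization, filter, test, G threshold and single arrays.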

Additional observations from a re-analysis of the deposited data

How the results depend on the processing

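Leaving out each array in turn left 0 G-rich probes called, 186 to 194 at 32 on at least 1 array, a rho of signal with percent G of 0.16 (without control 13) to 0.32 and a median log2 change of -0.28 (without AA 20) to -0.026. The detection gap was then 26.9 to 32.4 percentage points, with exact p = 0.0625, the smallest that 5 arrays allow. Probes lower in AA at an unadjusted p under 0.05 numbered 8 (without AA 21), 9 (without control 13) and up to 45 (without AA 19), or 4.15%, 4.84% and 23.4% of those tested, beside 2.06%, 1.61% and 8.19% of all tested probes. That count and the median change were 9 and -0.39 with subtraction of the empty-spot median, 0 and -0.41 with median scaling, 0 and -0.48 with no normalization and 11 and -0.38 from the deposited values; of all tested probes 3.45%, 0.353%, 0.265% and 3.45% were that low. The count was 49 (10.5%, beside 4.60%) with no filter and 11 (5.67%, beside 2.21%) by the methods' t-test. Array quality weights called 12, with 60 (30.9%, beside 11.0%) at an unadjusted p under 0.05 and a median of -0.35. The number at 32 was 325 in scanner signal above the empty-spot median, and 124 when all 6 arrays were asked for. The rho of signal with percent G was 0.11 over tested probes only. The cause of these moves was not tested.

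Of 430 alternative values for the 24 named probes, 402 kept direction and side of the threshold, 4 passed it (all with array quality weights) and 24 changed sign, none of them for a probe called in any setting. mmu-miR-709 was at 0.80 with cyclic loess, 0.050 with median scaling, 0.047 with array quality weights and -0.14 (without AA 21) to 0.086 (without AA 20) with 1 array left out. ppy-miR-1207-5p was at 0.56 and hsa-miR-4459 at 0.33 with cyclic loess, and the first at -0.21 to 0.042 with 1 array left out. hsa-miR-4743 was at -0.039 from the deposited values, and at -0.00058 (without control 13) to 1.30 with 1 array left out. With median scaling and with no normalization, bta-miR-2360 was at -0.014 and -0.082, hsa-miR-4656 at -0.20 and -0.27, bta-miR-2288 at -0.049 and -0.12, and mml-miR-1227 at -0.22 and -0.28. hsa-miR-4728-5p was at -0.051 with no normalization. bta-miR-2360 was at -0.35 with array quality weights and -0.18 to 0.39 with 1 array left out, and hsa-miR-4656 at -0.043 to 0.34. No paired analysis was possible because the groups share no replicate number. Signal near the empty spots limits what can be read for the 273 G-rich probes under 32 on every array.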
